A study of Mus musculus with 4 samples.

Results

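Osteopontin (Spp1), bone sialoprotein (Ibsp), chondroadherin (Chad), aggrecan (Acan), cytokine-like 1 (Cytl1), C-type lectin domain family 3 member A (Clec3a), the cartilage intermediate layer proteins (Cilp and Cilp2) and fin bud initiation factor (Fibin) were followed across the cell populations of the mouse Achilles tendon, which links calf muscle with the heel. These 9 genes, of 15746 in the count table, were picked for a role in cartilage or bone matrix and for a high level in the population that the authors named tendon fibroblasts 1, so their level there is a description and is not tested. The data are single-cell counts from 4 libraries of male C57Bl/6 mice aged 6 weeks, for which the labels name no treatment and no engineered allele, and the study set out to catalogue tendon cells. The labels number the libraries 1 to 4 and do not say how many mice each holds, so every spread and p-value below is one between libraries and may be partly technical.

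Cartilage and bone share part of their matrix. Aggrecan is a large proteoglycan whose sulfated chains hold water and give cartilage its resistance to compression, while osteopontin and bone sialoprotein are acidic, integrin-binding glycoproteins of mineralized tissue, coded in 1 gene cluster and known as SIBLING proteins. Chondroadherin is a leucine-rich repeat protein that binds collagen and the integrin that holds the alpha2 chain. The cartilage intermediate layer proteins are large secreted glycoproteins, and the first of them is known to bind growth factors of the TGF-beta and IGF families. Where a tendon meets bone or bends against it, its cells are known to make a fibrous cartilage.

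The table held 1191 cells, 11499881 UMIs (unique molecular identifiers, each standing for 1 captured transcript) and 13 populations named by the authors. The libraries carried 580, 246, 256 and 109 cells in order of their number, of which 60, 9, 83 and 21 were tendon fibroblasts 1 and 67, 2, 78 and 9 tendon fibroblasts 2. No cell barcode was shared between libraries, and 7 pairs of barcodes within a library differed by 1 base, all within 1 population and 1 of them in tendon fibroblasts 1. Levels are given as CPM, the UMIs of a gene per 1000000 UMIs of a population in a library, for populations with 5 or more cells there. UMIs counted from the 3-prime end give about 1 count a molecule whatever the transcript length, so CPM can be set side by side between genes, apart from differences in capture.

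Tendon fibroblasts 1 carried the tendon markers that its name calls for. The 10 marker genes, among them Scx, Mkx, Tnmd and the collagen I genes, summed to 121500 to 161085 CPM over the 4 libraries and all were found. Col1a1, Col1a2, Dcn and Comp carried most of this sum. It was not particular to these cells, at 56288 to 153336 CPM in tendon fibroblasts 2 and 114040 in tendon fibroblasts 3. Over all cells, Tnmd and Kera stood at 289 and 42.5 CPM against 648 and 291 in tendon fibroblasts 2. Thbs4 and Col1a2 were slightly lower than there, and the rest were higher. Of 7 cartilage cell markers in the table, Sox9 (398 CPM over all cells of the population) and Hapln1 (223 CPM) carried nearly the whole sum of 584 to 706 CPM, and the cartilage collagen gene Col2a1 had 1 UMI. Of 6 bone cell markers, Ifitm5, Dmp1 and Phex were at 0 UMIs, and the whole list summed to 0 to 15.9 CPM.

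Promoter sequences are shown for Spp1, Ibsp and Chad because Ibsp and Spp1 were the members whose levels went most with that of Chad from cell to cell. Each run is the 250 bases before the annotated start of transcription, taken from RefSeq on the GRCm38.p6 build and written 5′ to 3′ on the plus strand, on which all 3 genes lie. Capitals mark matches, on either strand, to 6 short motifs named after the sequences.
Spp1 (chr5:104434861-104435110): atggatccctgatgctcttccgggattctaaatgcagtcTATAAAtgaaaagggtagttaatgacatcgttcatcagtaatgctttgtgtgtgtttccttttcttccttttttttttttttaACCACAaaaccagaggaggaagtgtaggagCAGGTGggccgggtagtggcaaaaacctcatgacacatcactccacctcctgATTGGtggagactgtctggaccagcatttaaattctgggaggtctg
Ibsp (chr5:104299037-104299286): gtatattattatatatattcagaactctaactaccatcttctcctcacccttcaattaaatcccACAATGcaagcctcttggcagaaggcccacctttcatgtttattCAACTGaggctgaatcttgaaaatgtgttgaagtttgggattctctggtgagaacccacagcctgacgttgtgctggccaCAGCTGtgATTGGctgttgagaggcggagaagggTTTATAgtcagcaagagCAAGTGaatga
Chad (chr11:94564797-94565046): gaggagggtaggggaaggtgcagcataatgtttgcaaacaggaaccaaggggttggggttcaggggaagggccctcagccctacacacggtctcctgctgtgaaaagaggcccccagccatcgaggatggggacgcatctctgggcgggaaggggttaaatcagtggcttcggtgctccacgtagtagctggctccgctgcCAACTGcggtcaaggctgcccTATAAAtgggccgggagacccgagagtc
Of the 9 members, 8 matched an entry of the promoter table. Spp1 has a further entry at a downstream start, which is not shown and held 2 E-box matches. Ibsp and Chad each held a TATA box (the letters TATAAA) beginning 28 bases before the start, on the minus strand in Ibsp, and 12.4% of 32851 promoters of the same length hold these letters on either strand. The RUNX motif (ACCACA) was matched at 128 bases before the start in Spp1 and at 205 in Cilp, and 4614 of all promoters hold it. The CCAAT box, its name being its letters, stood at 46 bases in Spp1, 54 in Ibsp and 110 in Acan, and 33.8% of all promoters hold it. The SOX motif, searched as ACAATG, was matched once, at 186 bases in Ibsp, and 10.7% of all promoters hold it. The E-box, searched as CANNTG, was matched 3 times in Ibsp, 3 times in Cilp and once each in Spp1, Acan, Cilp2 and Chad, and 66.2% of all promoters hold it. The AP-1 motif, searched as TGANTCA, was matched in none of the 8 members' promoters, and 6.75% of all promoters hold it. No 2 of these matches overlap. Spp1 also held TATA box letters at 211 bases before the start. These are matches of letters and not measured binding sites.

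In the GENCODE annotation of GRCm38, Ibsp (ENSMUSG00000029306.8, chr5:104299287-104311472) and Spp1 (ENSMUSG00000029304.14, chr5:104435111-104441053) lie on the plus strand of chromosome 5, 123639 bases apart, with Mepe between them. Within this cluster the 2 members were far from their measured neighbour in level. Dmp1, the SIBLING gene before Ibsp, had 0 UMIs in tendon fibroblasts 1, against 2775 UMIs of Ibsp and 12460 of Spp1. Just beyond Spp1, Pkd2, which codes a cation channel, stood at 408 CPM in these cells. Acan (ENSMUSG00000030607.7, chr7:79053226-79115099) is followed after 1928 bases by Hapln3, a link protein gene, at 6.24 CPM. Chad (ENSMUSG00000039084.8, chr11:94565047-94569127) overlaps Acsf2 on the opposite strand, and Spp1 overlaps Gm42793 on its own strand. How reads in these overlaps were counted is not given in the sources used here.

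The mineral matrix genes Spp1 and Ibsp were both abundant in tendon fibroblasts 1 but did not keep the same pattern over libraries. Spp1 stood at 8649, 8338, 5563 and 6913 CPM in libraries 1 to 4, a mean of 7366 ± 1419 (SD, n = 4). Ibsp stood at 1679, 31.3, 1843 and 1318 CPM. In library 2 Ibsp was low while Spp1 was not: among its 9 cells, 2 held 4 Ibsp UMIs in all, and 6 held 1067 Spp1 UMIs. The exact Poisson 95% interval of its Ibsp level starts at 8.52 CPM and covers counting error only, and with 9 cells a difference between libraries cannot be told apart from which cells were drawn.

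Nearly all Ibsp lay in this one population. Tendon fibroblasts 1 held 99.3% of the 2795 Ibsp UMIs of the whole table, and no other population had a mean above 6.73 CPM. Of the 173 cells, 121 (69.9%) had an Ibsp UMI and 149 (86.1%) an Spp1 UMI, at a median of 8824 UMIs a cell. In endothelial cells 1, with a median of 7343 UMIs, the shares were 1.58% for Ibsp and 11.1% for Spp1, which gives the level of background.

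Spp1 was also high outside the fibroblasts. Nerve cells 1 held Spp1 at 1100, 1477 and 1274 CPM in libraries 1, 2 and 3, against 8.90, 12.5 and 10.6 CPM in endothelial cells 1 of the same libraries. The values of the 2 populations do not overlap. In this comparison 23.2% of 3743 genes tested were called higher in nerve cells 1. The comparison was chosen after the levels were seen, and Spp1, with 9, 6 and 2 UMIs in endothelial cells 1, passed the filter on low counts through nerve cells 1 alone, so its values are a description with no test. None of the other 8 members passed the filter there, and Chad, Acan, Cytl1, Clec3a and Ibsp had 0 UMIs in nerve cells 1. A count of 0 over the 300029 UMIs of nerve cells 1 allows up to 12.3 CPM by the exact 95% interval.

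Nerve cells 2 and tendon fibroblasts 3 came next in the order of Spp1 levels. Nerve cells 2 stood at 409.8 and 1772 CPM in libraries 1 and 2, a range that overlaps that of nerve cells 1. Tendon fibroblasts 3 had 5 or more cells in library 1 only and stood at 365 CPM there, with Spp1 UMIs in 19 of its 51 cells over all libraries. None of these populations approached tendon fibroblasts 1 in Ibsp: nerve cells 2 had 1 Ibsp UMI, and tendon fibroblasts 3 had 0, which allows up to 9.99 CPM by the exact 95% interval. In immune cells Spp1 stood at 18.5, 0 and 145 CPM in libraries 1, 2 and 3, and 1 cell held 10 of the 11 UMIs behind the last value.

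**Figure D1:**
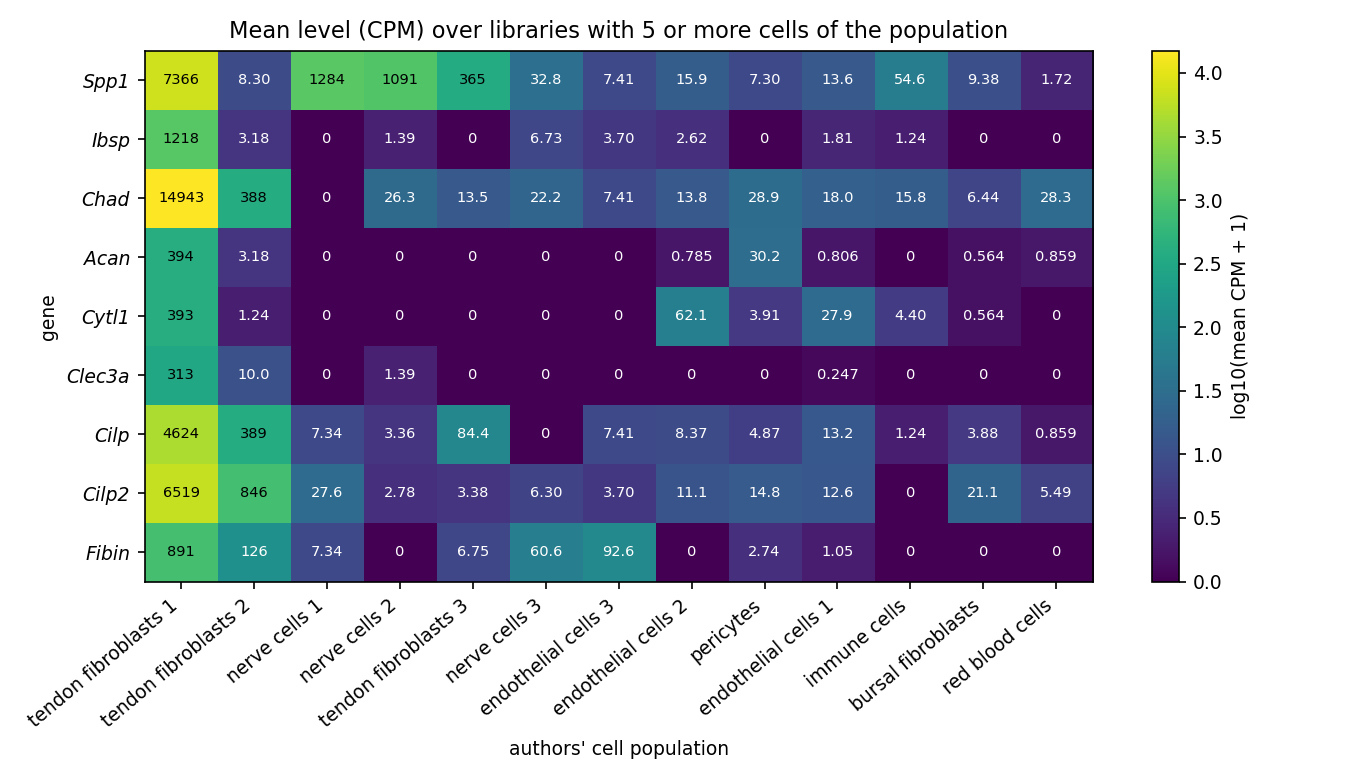
Mean level of each gene (rows) in each population (columns), in CPM over the libraries with 5 or more cells of that population, printed in each cell and coloured on a log10 scale of CPM + 1. Spp1 reaches 7366 CPM in tendon fibroblasts 1, 1284 in nerve cells 1 and 1091 in nerve cells 2, and each of the other 8 genes is highest in tendon fibroblasts 1.

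Chad was the most abundant of the 9. It stood at 13712, 17972, 14535 and 13551 CPM in libraries 1 to 4 of tendon fibroblasts 1, a mean of 14943 ± 2065 (SD, n = 4). The 4 libraries kept within a narrow range, and 171 of 173 cells held a Chad UMI, at a median of 108 UMIs a cell. In endothelial cells 1 the share of cells with a Chad UMI was 13.2% and the mean level 18.0 ± 5.84 CPM (SD, n = 4).

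The aggrecan and small cartilage genes were an order of magnitude or more below Chad, though clearly present. Acan stood at 398, 524, 377 and 276 CPM in libraries 1 to 4. Clec3a, which codes a lectin-like protein known from cartilage, stood at 224, 477, 262 and 291 CPM. Library 2 was the highest for both. Fibin, a secreted protein first named for fin bud formation, stood at 810.0, 1188, 809 and 759 CPM, and its highest value, again library 2, rested on 2 cells that held 72 and 52 of 152 UMIs.

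Cilp and its relative Cilp2 differed in how even they were. Cilp2 stood at 5340, 6486, 6907 and 7344 CPM and was found in 171 of 173 cells. Cilp stood at 2296, 2079, 5060 and 9062 CPM and was found in 107 cells (61.8%). The Cilp SD over libraries was 3255 CPM on a mean of 4624, against 860.5 CPM on a mean of 6519 for Cilp2. Of the Cilp UMIs of the population, 53.9% lay in the 17 cells with the most, against 27.6% for Cilp2.

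Cytl1, a small secreted protein known from cartilage cells, was the most unevenly spread of the members. It stood at 412, 609, 448 and 102 CPM in libraries 1 to 4, and the level came from few cells. Of 173 cells, 31 (17.9%) had a UMI, and the 17 cells with the most held 95.1% of the UMIs. A single cell held 19.8%. Spp1 came next, with 60.3% of its UMIs in its 17 highest cells and up to 995 in a cell, at a median of 23. Its levels were thus less even over cells than over libraries. Acan shared part of this pattern, with 15.1% of its UMIs in 1 cell and 52.2% in its 17 highest, but 119 cells (68.8%) had an Acan UMI.

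**Figure D2:**
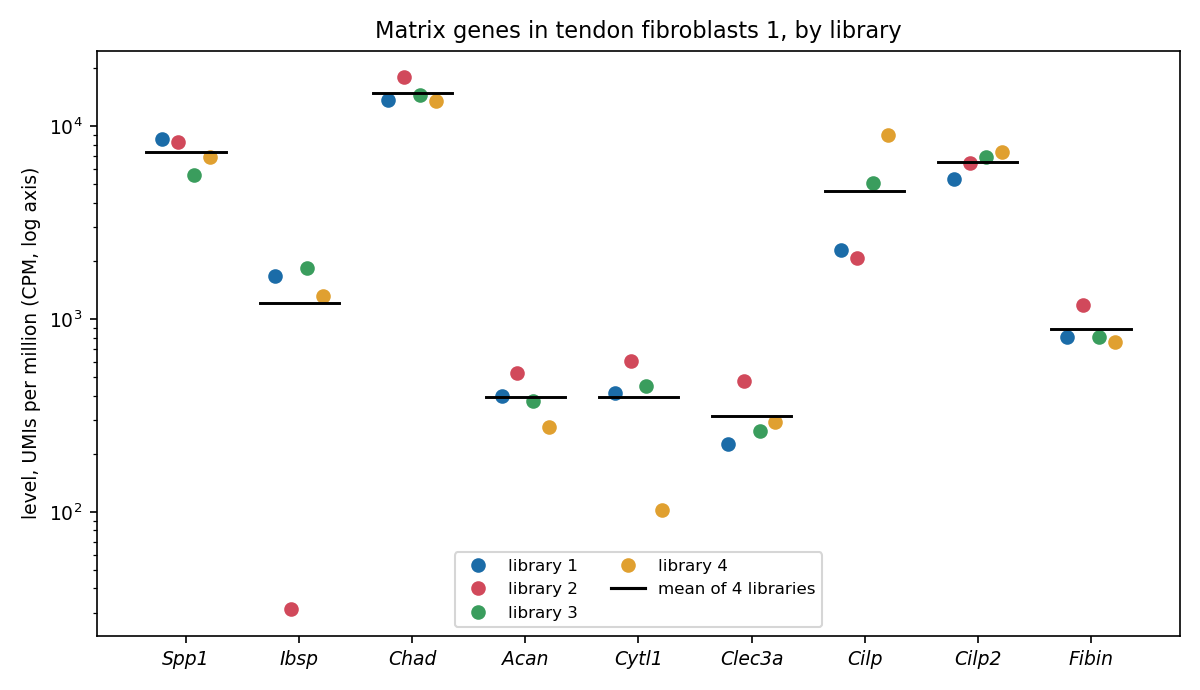
Level of each gene in tendon fibroblasts 1 in CPM (log axis), 1 point a library, with a bar at the mean of the 4 libraries. Chad, Cilp2 and Spp1 lie within narrow bands, Cilp spreads from 2079 to 9062 CPM, and Ibsp falls to 31.3 CPM in library 2, which has 9 cells of this population.

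Tendon fibroblasts 2, the other large tendon fibroblast population, shared 4 of the 9 genes at lower levels. Chad stood there at 279, 716 and 169 CPM in libraries 1, 3 and 4, Cilp at 266, 554 and 346, Cilp2 at 232, 1540 and 765 and Fibin at 44.8, 308 and 24.2. Library 3 was the highest for each of the 4. In endothelial cells 1 of the same libraries no value of these genes exceeded 31.7 CPM, and the values of the 2 populations did not overlap for any of the 4.

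All 4 members that passed the filter on low counts were higher in tendon fibroblasts 2 than in endothelial cells 1. In this comparison 14.6% of 7178 genes tested were called higher, and the other 5 members did not pass the filter. Endothelial cells 1 held few UMIs of the 4, which passed through tendon fibroblasts 2 alone. Their values are thus a description with no test, and the count is given without a reading. The authors' populations rest on the counts that are compared, so a test here cannot say whether 2 populations are separate. Chad was higher by 4.57 ± 0.34 on the log2 scale (SE, n = 3 libraries). Cilp was higher by 5.24 ± 0.44 and Cilp2 by 5.67 ± 0.35. Fibin was higher by 5.87 ± 0.59, on 2 UMIs in all of endothelial cells 1, so that its fitted change depends on the model's prior count. Each of the 4 was higher in 3 of 3 libraries.

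Against bursal fibroblasts, the cells that the authors named for the fluid-filled sac beside the tendon, Chad, Cilp and Cilp2 were higher in tendon fibroblasts 2 as well. The fitted log2 differences were 5.52 ± 0.62, 6.80 ± 0.54 and 5.34 ± 0.58 (SE, n = 3 libraries). In this comparison 4.15% of 4960 genes tested were called higher, and 3 of the 9 members passed the filter. Bursal fibroblasts held 5 Chad, 2 Cilp and 10 Cilp2 UMIs in all, so these members passed through tendon fibroblasts 2 alone. Their values are a description with no test, and the size of their fitted differences depends on the model's prior count. Bursal fibroblasts held 0 Ibsp, 0 Clec3a and 0 Fibin UMIs among 832161, which allows up to 4.43 CPM by the exact 95% interval. They were at the same time the population with the most osteocalcin, with 702 CPM of Bglap2 and 227 CPM of Bglap, bone genes whose near-identical copies may share reads, against 0.567 and 1.70 CPM in tendon fibroblasts 1. The remaining bone cell markers in the table, Ifitm5, Dmp1, Phex and Alpl, were at 0 UMIs in bursal fibroblasts. The whole list ran from 49.8 to 1202 CPM over the 3 libraries. None of the 9 members passed the filter in bursal fibroblasts or in immune cells against endothelial cells 1, so no member was tested there, where 38.0% and 30.2% of the genes tested were called in either direction.

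A few cells carried most of the Chad of tendon fibroblasts 2. Of its 156 cells, 20 had 10 or more Chad UMIs, 16 of them in library 3, and these held 89.7% of its Chad UMIs. Their median depth was 10074 UMIs, against 10737 in the other 136 cells. In the same 20 cells Cilp2 stood at 3132 CPM, Cilp at 1135 and Fibin at 666, against 601, 310.4 and 103 CPM in the others. Spp1, at 32.8 CPM, was far below its level in tendon fibroblasts 1, and Dpt (dermatopontin, a matrix protein of fibroblasts) stood at 403 CPM against 1012. These cells were picked by their Chad count, so the values describe them and are not tested. Without them the log2 difference from endothelial cells 1 was 1.62 for Chad in place of 4.57, a value that the choice of cells lowers, 4.70 for Cilp and 4.97 for Cilp2, and Fibin no longer passed the filter.

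**Figure D3:**
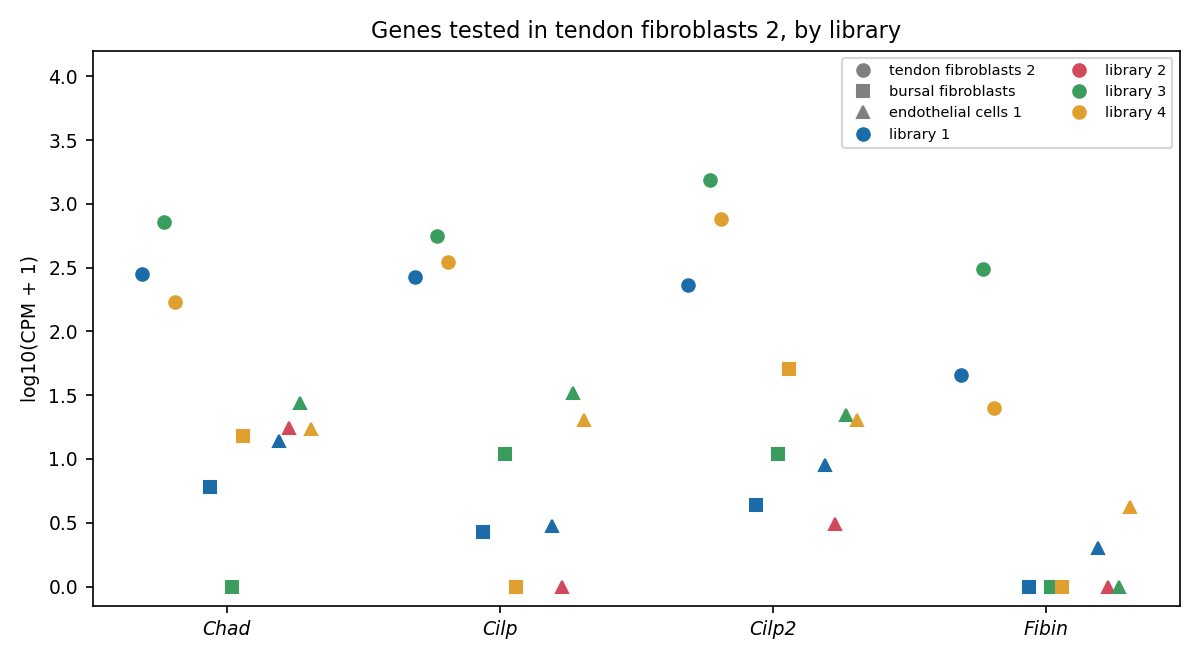
Levels of Chad, Cilp, Cilp2 and Fibin as log10(CPM + 1), 1 point a library, in tendon fibroblasts 2 (circles), bursal fibroblasts (squares) and endothelial cells 1 (triangles). The circles of each gene lie above every square and triangle of that gene, and the library 3 circle is the highest for each gene.

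The 5 remaining members were low in tendon fibroblasts 2. Spp1 stood at 5.12, 19.8 and 0 CPM in libraries 1, 3 and 4, beside 8.90, 10.6 and 22.6 in endothelial cells 1, and the ranges overlap. Ibsp and Acan each had 8 UMIs among 1779092 in tendon fibroblasts 2, and Cytl1 had 3. Clec3a had 20 UMIs there, 19 of them in library 3, a level of 11.2 CPM over all libraries (exact 95% interval 6.87 to 17.4). In endothelial cells 1 Clec3a had 1 UMI, or 0.502 CPM (0.0127 to 2.80), and these intervals, which cover counting error only, do not overlap. In the comparison of tendon fibroblasts 1 with tendon fibroblasts 2, the one for which the genes were picked, all 9 passed the filter and stood higher in tendon fibroblasts 1, by 3.25 (Fibin) to 9.46 (Spp1) on the log2 scale, where 4.33% of 7043 genes were called higher.

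Acan, Cytl1 and Fibin each had a second place outside the tendon fibroblasts. Acan was found in 17 of 107 pericytes, the contractile cells around small vessels, which had a median of 9188 UMIs, at 78.1, 20.4, 13.4 and 8.83 CPM in libraries 1 to 4. In endothelial cells 1 it had 1 UMI in 190 cells. It did not pass the filter on low counts in this comparison, which was chosen after the levels were seen, so no test is given. Library 1 held 43 of the 53 UMIs and was the highest, and libraries 3 and 4 rest on 1 and 2 UMIs.

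Cytl1 stood at 126, 72.2, 50.5 and 0 CPM in endothelial cells 2 in libraries 1 to 4, from 7 of 74 cells. Tendon fibroblasts 1 was the higher of the 2 populations within each library, while their ranges over libraries overlap, since the 126 CPM of library 1 lie above the 102 CPM of library 4 in tendon fibroblasts 1. In endothelial cells 1 a single cell held 33 of 34 Cytl1 UMIs. Fibin stood at 92.6 CPM in endothelial cells 3, which reached 5 cells in library 1 only, from 5 cells, and its range in tendon fibroblasts 2 covers that value. For Chad, Cilp, Cilp2, Clec3a and Fibin the order began with tendon fibroblasts 1 and tendon fibroblasts 2, whose ranges over libraries did not overlap.

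Members were found together in single cells. Of 173 tendon fibroblasts 1 cells, 172 (99.4%) held UMIs of 4 or more members, with a median of 7, and 4 cells held all 9. The share was 23.7% in tendon fibroblasts 2 and 0.526% in endothelial cells 1, and 0 of 40 bursal fibroblasts or 51 tendon fibroblasts 3 cells reached 4 members. After every cell was thinned to 2400 UMIs, the shares were 94.4% of 161 cells, 6.08% of 148 cells and 0 of 176 cells, with 12, 8 and 14 shallower cells left out. One tendon fibroblasts 1 cell held no member at all. The genes were picked for a high level in tendon fibroblasts 1, so a higher share there follows from the choice. Chad and Cilp2 were each found in 171 of the 173 cells, so members can share a cell without being linked. The share expected of unlinked genes was not computed.

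Within tendon fibroblasts 1, the measured levels of most pairs of members were at most weakly correlated from cell to cell. Correlations are Pearson's r of ln(1 + 10000 × count / total) across the 60, 83 and 21 cells of libraries 1, 3 and 4. The points of a library share its depth and preparation, and no p is given. Over the 36 pairs the median r was 0.06. Ibsp and Chad had the highest mean, with r of 0.34, 0.45 and 0.53, followed by Spp1 and Chad with 0.26, 0.56 and 0.40. Spp1 and Ibsp, the neighbours on chromosome 5, had 0.20, 0.30 and 0.29. These 3 pairs had the same sign in each library. The mean r with the number of UMIs of a cell was 0.11 for Spp1, -0.21 for Ibsp and -0.15 for Chad.

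The lowest pair was Ibsp with Cilp, at -0.61, -0.05 and -0.15. It was far from 0 in library 1 only. Over all tendon fibroblasts 1, the 66 cells without a Cilp UMI had Ibsp at 2398 CPM and the 107 cells with one at 1158 CPM, with median depths of 8443.5 and 9807.0 UMIs. Chad and Cilp2 had 0.57 and 0.48 in libraries 1 and 3 but -0.01 in library 4. Of cells with an Spp1 UMI, 75.2% also had an Ibsp UMI, against 37.5% of the 24 cells without one, which were shallower by a small margin (medians of 8858.0 and 8090.0 UMIs).

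**Figure D4:**
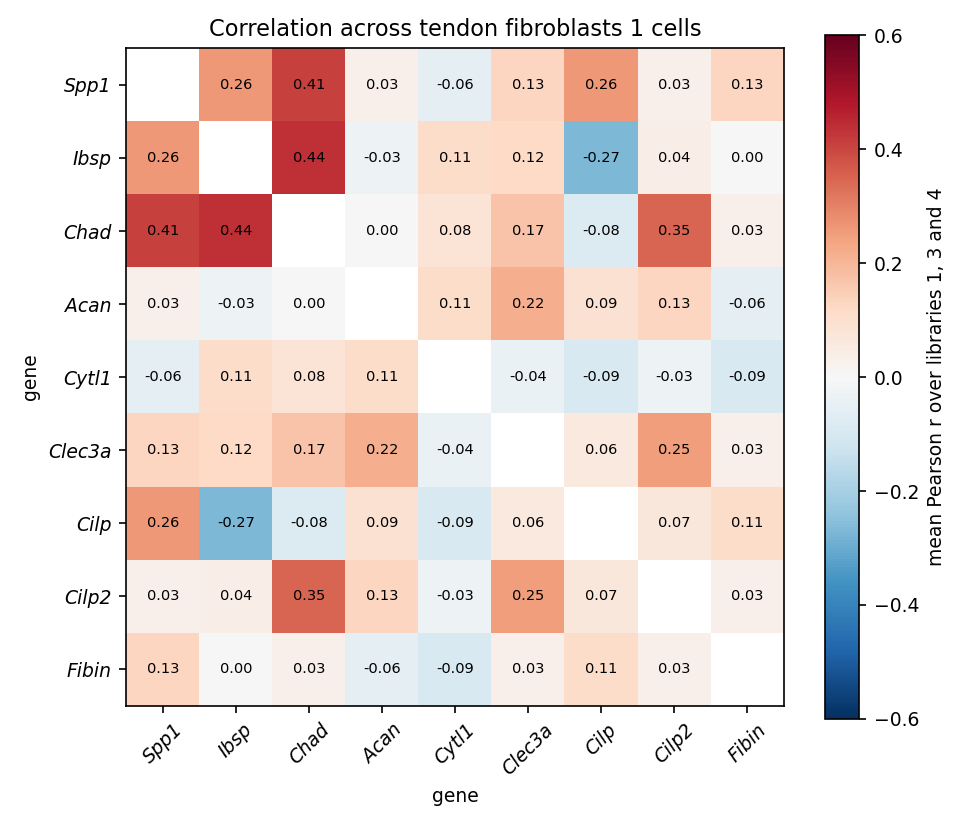
Pearson's r of each pair of genes across tendon fibroblasts 1 cells, as the mean over libraries 1, 3 and 4, printed in each square and coloured from blue (negative) to red (positive). The highest values are those of Chad with Ibsp (0.44), Spp1 (0.41) and Cilp2 (0.35), and Ibsp with Cilp is the lowest at -0.27.

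Other genes of tendon fibroblasts 1 followed single members from cell to cell. Acan went most with Col6a3, a collagen VI chain (mean r of 0.54, 0.45 to 0.64 over 3 libraries), and Hapln1, the link protein that ties aggrecan to hyaluronan (0.51, 0.42 to 0.60). Ibsp went most with Cst3, a cystatin protease inhibitor (mean r of 0.52), the aggrecan-cleaving protease gene Adamts5 (0.47) and Frzb, a secreted Wnt inhibitor (0.41). Cilp2 went most with Col11a1 (0.51) and Col5a2 (0.47), both fibrillar collagen chains. Chad went with Clu, Cst3 and Prg4, Spp1 with Serpine2, Lox and Ctgf, Cilp with Dcn, Lgalsl and B2m, Fibin with Ccdc3, Mfge8 and Ppic, at mean r of 0.37 to 0.50. Some of these pairs were uneven over libraries: Chad with Prg4 ran from 0.01 to 0.76, Spp1 with Ctgf from 0.09 to 0.70 and with Serpine2 from 0.21 to 0.81, and Cilp with Dcn from 0.13 to 0.73. Spp1 with Lox (0.41 to 0.49) and Fibin with Ccdc3 (0.42 to 0.48) were even. Cytl1 and Clec3a reached 0.39 and 0.34 at most, with Junb and Col8a2. These are the highest 3 of 4681 genes for each member, so high values are selected, and they are descriptions.

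The genes most like the members were also sought across populations. Over 39 sums of a population in a library and 7181 genes, the 10 with the highest mean r of log2(CPM + 10) with the 9 members were Atp6v0a4 (0.87), Scrg1 (0.87), Ucma (0.86), Scx (0.85), Angptl7 (0.83), Meltf, Mkx, 1500015O10Rik and Hapln1 (each 0.82) and Tnfrsf11b (0.81). Scx and Mkx are transcription factors known for tendon formation, and Ucma is a secreted cartilage protein that carries gamma-carboxylated residues. Angptl7, a secreted angiopoietin-like protein, was the most abundant of them at 9154 CPM in tendon fibroblasts 1 and 1451 in tendon fibroblasts 2. Among the members themselves Spp1 was the least like the rest, with a mean r of 0.61, against 0.68 for Cytl1 and 0.78 to 0.86 for the other 7. The members were picked for a high level in tendon fibroblasts 1, and its sums are among the 39. Genes largely confined to this population thus rank high by the choice of members. The sums also share libraries, so these values too are descriptions.

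The wider pathway was compared between tendon fibroblasts 1 and tendon fibroblasts 2 over 3 libraries, with lists that hold none of the 9 members. The populations rest on the same counts, and the lists were chosen with earlier results of these data known. Genes with few UMIs in either population passed the filter through the other alone. Of those, Hapln1, Frzb, Tnfrsf11b, Gdf5, Chst3 and Has2 are given below with no p, as a description, and the counts of calls include them. Dmp1, the only other SIBLING gene with counts, was too low to test. Of 7043 genes tested, 4.33% were called higher and 3.79% lower in tendon fibroblasts 1, with a median log2 difference of 0.01. Of 12 other cartilage matrix genes tested, 8 were higher and 0 lower, with a median of 2.49. Hapln1 was at 243 against 8.54 CPM (log2 difference 4.68 ± 0.51), on 16 UMIs in tendon fibroblasts 2. Frzb was at 94.5 against 3.68 CPM (4.51 ± 0.40), on 9 UMIs there. Thbs1, which codes the matrix glycoprotein thrombospondin 1, was at 1028 against 39.7 CPM (4.70 ± 0.59, edgeR adjusted p = 0.00119). Col11a1, a type XI collagen chain, was at 906 against 403 CPM (1.56 ± 0.40, edgeR adjusted p = 0.0459), a call lost without the library block and without library 1 or library 4 (0.116, 0.229 and 0.173). The type II and type IX collagen genes were too low to test: Col2a1 had 1 UMI in tendon fibroblasts 1 and 9 in tendon fibroblasts 2, and Col9a1, Col9a2 and Col9a3 had 3, 3 and 4 in the former.

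Of the genes known to limit mineral, most were higher. Of 5 tested, 4 were higher and 0 lower, with a median of 2.02. Tnfrsf11b, which codes osteoprotegerin, a decoy receptor that holds back bone-resorbing cells, was at 244 against 6.29 CPM (4.58 ± 0.42), on 15 UMIs in tendon fibroblasts 2. Nt5e, the ecto-nucleotidase that makes adenosine, was at 340.2 against 66.5 CPM (2.66 ± 0.45, edgeR adjusted p = 0.00566), and Ank, a pyrophosphate exporter, at 386 against 114 (2.02 ± 0.43, edgeR adjusted p = 0.0192). Enpp1, which makes pyrophosphate, was at 169 against 76.8 CPM (1.46 ± 0.28, edgeR adjusted p = 0.0110). Without library 1 the count was 2 in place of 4, as Ank and Enpp1 were lost (adjusted p = 0.0999 and 0.112), and Ank was also lost without library 4 (0.0918) and Enpp1 after thinning (0.0877). Mgp, the matrix Gla protein, was at 1639 against 1348 CPM and was not called (edgeR adjusted p = 0.289).

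Bone-forming genes were mostly too low to test. Of 15 such genes with counts, 5 were tested, 2 were higher and 0 lower, with a median of 0.94. Omd (osteomodulin) was at 152 against 34.2 CPM (2.19 ± 0.33, edgeR adjusted p = 0.00318). Bmp2 was at 192 against 109 CPM (1.30 ± 0.33, edgeR adjusted p = 0.0417), a call that was lost with DESeq2, without the library block, after thinning and without library 1 (adjusted p of 0.0833, 0.187, 0.187 and 0.273). Runx2, a master regulator of bone cells, had 10 UMIs in tendon fibroblasts 1 and did not pass the filter.

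Of 9 regulators of cartilage and tendon formation tested, 7 were higher and 0 lower, with a median of 1.47. The 7 include Scx and Mkx, known for tendon formation. Sox9, the transcription factor that drives cartilage genes, was at 394 against 70.5 CPM (2.71 ± 0.25, edgeR adjusted p = 1.9e-04), and Scx at 58.4 against 15.3 (2.03 ± 0.31, edgeR adjusted p = 0.00313). Gdf5, a growth factor of joint formation, was at 63.8 against 8.95 CPM (2.74 ± 0.67), on 23 UMIs in tendon fibroblasts 2. Its call was lost without library 1 or library 4. Without library 1 the count was 3 higher in place of 7, and it was 5 with DESeq2.

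Of 10 tested genes for receptors of the members and other integrin chains, 1 was higher and 0 lower, with a median of 0.03, and without library 3 the counts were 2 and 2. It was Itga10, the alpha10 chain of a collagen-binding integrin, at 156 against 33.4 CPM (2.37 ± 0.39, edgeR adjusted p = 0.00462). Itga2, the alpha2 chain named above for chondroadherin, was at 37.7 against 77.3 CPM and was not called (-0.50 ± 0.42, edgeR adjusted p = 0.616). The osteopontin receptor Cd44 was at 93.8 against 440.2 CPM and was not called (-1.44 ± 0.46, edgeR adjusted p = 0.105).

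Of 13 genes for aggrecan partners, chain synthesis and breakdown tested, 4 were higher and 2 lower, with a median of 0.87. Vcan, which codes the related proteoglycan versican, was at 1821 against 613 CPM (1.76 ± 0.23, edgeR adjusted p = 0.00154), and Xylt1, which starts the sugar chains, at 140.2 against 55.1 (1.75 ± 0.36, edgeR adjusted p = 0.0161). Cspg4, another chondroitin sulfate proteoglycan, was at 267 against 128 CPM (1.28 ± 0.21, edgeR adjusted p = 0.00496). The protease gene Adamts1 was lower, at 42.9 against 134 CPM (-1.45 ± 0.24, edgeR adjusted p = 0.00474). Chst3, a sulfotransferase of the chains, was at 35.7 against 4.23 CPM (3.01 ± 0.56), on 10 UMIs in tendon fibroblasts 2. Has2, which makes hyaluronan, was lower at 6.40 against 49.4 CPM (-2.29 ± 0.58), on 11 UMIs in tendon fibroblasts 1. Its call was lost without library 3 or library 4. Xylt1 was not called without library 3 (adjusted p = 0.0651), nor Cspg4 without library 1 or after thinning (0.0537 and 0.0600).

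Of 8 genes of the TGF-beta and IGF families that Cilp is known to bind or that receive their signal, 1 was higher and 1 lower, with a median of 0.07. Tgfb1 was at 109 against 52.8 CPM (1.46 ± 0.29, edgeR adjusted p = 0.0118), a call lost with DESeq2 and without library 1 (0.0783 and 0.193), and without library 1 the counts were 0 higher and 2 lower. Igf1 stood out in the other direction, at 134 against 1544 CPM (-3.42 ± 0.25, edgeR adjusted p = 5.7e-05, lower in 3 of 3 libraries). Over the same 3 libraries Cilp stood at 5473 against 389 CPM. Cilp was picked for its high level in tendon fibroblasts 1, and a link between it and Igf1 was not tested.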

How the data were processed

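The authors deposited raw UMI counts per gene and cell, a table of normalized values on a natural log scale, and a table giving each cell its library, its recorded count of UMIs and its population name. Per the submitters' processing notes, Cell Ranger, Seurat 2.3.4, R 3.5.2 and the mm10 build were used. The strand setting, the cell filters and any doublet removal are not given in the sources used here. The deposited natural log values equal ln(1 + 10000 × count / total) within 5.0e-10 and were used only for that check. Of 15750 gene entries, 4 under a repeated name were left out, with 0.0186% of UMIs. No cell was removed and no doublet caller was run. The 9 members and all gene lists were chosen with earlier results of these data known.

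Counts were summed per library and authors' population (5 or more cells, 3 or more libraries in both) and tested with edgeR 4.0.16 in R 4.3.3 (quasi-likelihood test, TMM, filterByExpr, library as block, Benjamini-Hochberg over all genes tested, threshold 0.05). Both sums of a comparison come from the same library, which is why the library was a block. Their deviations across genes correlated only between -0.02 and 0.22 over 7 comparisons. The named list genes are up to 3 a direction with the largest log2 difference called between tendon fibroblasts 1 and 2, with 50 or more CPM on the higher side; the genes most like a member were ranked by mean r as described beside them. Other genes named beside a list were chosen after their values were seen. Shares of cells were also computed after thinning cells to 2400 UMIs (114 shallower cells left out). Intervals are exact 95% intervals and cover counting error only. On simulated data in which 200 genes were given a log2 change of 2, the test gave 100% recovery for tendon fibroblasts 1 against 2 (6960 genes) and 98% for tendon fibroblasts 2 against endothelial cells 1 (7175 genes). The simulation gave every gene the same dispersion, held no library effect and changed only genes above a minimum count. The spread of the real libraries was not simulated, so these shares do not give the recovery in these data. Alternatives were DESeq2 1.42.0, no filter, no block, 10 cells a sum, thinning and leaving out each library. Python 3.11.15, numpy 2.4.6, pandas 2.3.3 and matplotlib 3.10.9 were used.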

Additional observations from a re-analysis of the deposited data

Results flagged for a closer look

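Among 37 combinations of a member and a population with 4 usable libraries, 12 had a library far from the other 3 by Dixon's criterion (gap over range above 0.829). Chance flags about 1 in 20 groups of normally spread values, a rate that sparse counts do not keep. A group with 3 libraries at 0 and any UMI in the remaining one is always flagged. Most of the 12 rest on a handful of UMIs in populations where the gene is otherwise at or near 0.

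In tendon fibroblasts 1, Fibin at 1188 CPM in library 2 was far above the other 3 libraries, on 9 cells. Acan in pericytes was high in library 1, at 78.1 CPM from 43 UMIs in 12 cells. Chad in red blood cells reached 109.9 CPM in library 1, where 1 cell held 29 of 32 UMIs. Cytl1 in endothelial cells 1 reached 106 CPM in library 4, from 1 cell with 33 UMIs. Cilp in pericytes reached 17.7 CPM in library 4, with 4 UMIs in 4 cells, and Ibsp in endothelial cells 2 reached 10.5 CPM in library 1, with 4 UMIs in 2 cells.

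The other 6 were set by 1 or 2 UMIs. In library 1 of red blood cells these were Spp1 at 6.87 CPM, Acan at 3.44 CPM and Cilp at 3.44 CPM. Acan stood at 3.22 CPM in library 4 of endothelial cells 1 and at 3.14 CPM in library 2 of endothelial cells 2. Clec3a stood at 0.989 CPM in library 1 of endothelial cells 1.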

How the results depend on the processing

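Levels of the 9 members in tendon fibroblasts 1, and the shares of their UMIs that lay there, stayed within 1 SD of the main value in 54 of 54 alternative values each. Most of these values leave out 1 of the 4 libraries, which cannot move their mean by 1 SD. For them the outcome was fixed, and only thinning and pooling over libraries could have given another. Shares of cells with a UMI rose out of their interval without thinning for 4 members: Ibsp (69.9%), Acan (68.8%), Clec3a (75.1%) and Fibin (91.3%), and remained within it for the other 5. The median r of the member pairs lay between 0.03 and 0.09 over the libraries left out, and at 0.05, 0.07 and 0.08 with Spearman's rho, after thinning and without the deepest cells. No tested direction reversed among the list genes followed singly through the alternatives, which do not include Mkx, Mgp, Cd44 and Itga2. The members compared in tendon fibroblasts 2 kept their direction wherever they passed the filter. Chad did not pass it after thinning, nor Fibin after thinning or without library 1 (tendon fibroblasts 2 against endothelial cells 1).

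Counts of genes called over all genes moved more. For tendon fibroblasts 1 against 2 (572 calls) they were 371 with DESeq2, 1073 with no filter, 235 after thinning and 362 to 529 with a library left out. For tendon fibroblasts 2 against bursal fibroblasts (320) they were 727 with no filter and 149 to 399 with a library left out. For tendon fibroblasts 2 against endothelial cells 1 (2380) they were 1575 with DESeq2, 879 after thinning and 1288 to 2488. Against the same cells, immune cells (1698) gave 581 after thinning and 773 to 2156, bursal fibroblasts (1662) gave 2668 with no filter and 1221 to 1997, nerve cells 1 (1949) gave 2941 with no filter and 664 after thinning, and pericytes (1877) gave 2918 and 494. Thinning also lowered the number of genes that pass the filter, while leaving out a library lowered or raised it. For tendon fibroblasts 2 against bursal fibroblasts it went from 4960 to 2174 without library 1 and to 7319 without library 4. Without the library block the counts were 547, 262, 2429, 1680, 1891, 2002 and 1993, in the order of tendon fibroblasts 1 against 2, tendon fibroblasts 2 against bursal and endothelial cells 1, then bursal, immune, nerve and pericyte sums against endothelial cells 1. Leaving out the block changed no call of a gene followed singly other than Bmp2 and Col11a1. The regulators of cartilage and tendon formation went from 7 to 6 higher without it, through a gene that was not followed singly. Mkx was among those not followed.

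A minimum of 10 cells a sum left under 3 libraries for the 5 planned comparisons, and thinning did so for both comparisons with bursal fibroblasts, so these were not run. Library 2 holds 9 tendon fibroblasts 1 cells, which limits what can be said of its Ibsp and Fibin levels.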
